A study of Mus musculus with 11 samples.

Results

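ETn (early transposon) and MusD elements are families of endogenous retrovirus of the ERVK class in the mouse genome. The copies described here were every row of the deposited table of transposable element (TE) copies whose subfamily name begins with MMETn, ETnERV or RLTRETN and whose value was above 0 in at least 1 library. This gave 1051 copies of the 5606 that the table lists under 5 subfamilies, among 578629 detected copies of 3725827 over all TEs. Whole testes of 4 genotypes were taken at P5 (postnatal day 5) and their poly-A RNA was sequenced, all on a C57Bl6/J background. WT testes gave 2 libraries. Dnmt3CKO/KO testes (Dnmt3C KO) gave 3 libraries and lacked the de novo DNA methyltransferase DNMT3C in every cell. Testes labelled Nrf1KO/KO (Nrf1 cKO) gave 3 libraries and carried 1 constitutive null and 1 floxed Nrf1 allele with the Ddx4-Cre (Vasa-Cre) driver, which is active in germ cells only, so that somatic cells kept a functional Nrf1 allele. Testes with both genotypes (dKO) gave 3 libraries. Controls were littermates where possible, and the authors left out 1 replicate of every genotype for RNA quality. The sample titles name germ cells, whereas tissue and cell type labels also name somatic cells.

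MusD elements carry the gag, pro and pol genes of a retrovirus, and ETn elements are shorter relatives that have lost most of these genes and move with proteins made by MusD. Both are flanked by long terminal repeats (LTRs), which hold the promoter. They are known for new insertions that mutate genes in laboratory mice, and they are held silent by DNA methylation and by histone methylation set by SETDB1 with TRIM28. In the table, MMETn-int and ETnERV-int are internal regions of ETn and MusD elements, ETnERV2-int and ETnERV3-int are related internal regions, and RLTRETN_Mm is the LTR. NRF1 is a transcription factor that binds unmethylated DNA at CG-rich promoters.

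Sequence could be read for copies that lie in a RefSeq promoter window (250 bases before to 50 bases after a gene start, build GRCm38.p6) or in an annotated exon of GRCm38. The LTR copies below are shown because each spans the annotated start of a gene, and one of them was detected in dKO libraries only. CG dinucleotides, the sites of DNA methylation, are in capitals. The window of Gm38894 at chr6:124797044-124797343 (minus strand) lies in RLTRETN_Mm_dup439 and holds 10 CG:
RLTRETN_Mm_dup439: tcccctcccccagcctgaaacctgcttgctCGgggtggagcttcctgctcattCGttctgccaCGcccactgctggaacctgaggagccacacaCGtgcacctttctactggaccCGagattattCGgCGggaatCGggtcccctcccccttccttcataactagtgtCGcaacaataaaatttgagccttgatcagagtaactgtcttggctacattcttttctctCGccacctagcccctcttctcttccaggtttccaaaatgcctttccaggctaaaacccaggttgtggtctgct
The window of Gm36120 at chr9:83681594-83681893 (minus strand) lies in RLTRETN_Mm_dup647, a copy at 0 in all 11 libraries, and holds 8 CG:
RLTRETN_Mm_dup647: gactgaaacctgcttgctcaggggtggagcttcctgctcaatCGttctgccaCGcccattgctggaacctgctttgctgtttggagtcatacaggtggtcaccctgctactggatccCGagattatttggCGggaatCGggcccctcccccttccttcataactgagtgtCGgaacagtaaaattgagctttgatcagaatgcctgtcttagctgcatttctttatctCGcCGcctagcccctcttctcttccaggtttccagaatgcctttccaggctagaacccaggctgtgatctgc
Both windows were identical at 259 of 315 aligned columns (82.2%). The median over 32851 RefSeq promoter windows was 7 CG, with quartiles of 3 and 20.

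The junction between LTR and internal region is shown for a pair of loci whose transcripts include it, with the internal region in capitals. The first is an exon of the antisense gene Gm44206 at chr6:115824499-115824714 (plus strand), with 108 bases of RLTRETN_Mm_dup423, 108 bases of MMETn-int_dup250 and 9 CG:
RLTRETN_Mm_dup423+MMETn-int_dup250: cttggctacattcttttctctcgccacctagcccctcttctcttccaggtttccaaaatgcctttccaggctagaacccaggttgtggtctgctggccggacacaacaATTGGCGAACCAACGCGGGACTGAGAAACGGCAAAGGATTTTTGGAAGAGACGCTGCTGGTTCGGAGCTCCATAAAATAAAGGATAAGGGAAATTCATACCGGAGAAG
The second is an exon of the lincRNA gene Gm4425 at chr12:22123353-22123541 (minus strand), with 77 bases of RLTRETN_Mm_dup877, 111 bases of MMETn-int_dup655 and 1 CG:
RLTRETN_Mm_dup877+MMETn-int_dup655: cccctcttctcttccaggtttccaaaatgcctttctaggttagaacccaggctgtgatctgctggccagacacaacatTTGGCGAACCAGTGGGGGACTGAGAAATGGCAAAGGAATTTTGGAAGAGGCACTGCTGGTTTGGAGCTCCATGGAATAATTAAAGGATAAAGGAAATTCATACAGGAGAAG
A copy inside an exon of the lincRNA gene Gm49441 at chr15:42200925-42201205 (plus strand) represents the ETnERV3-int subfamily, with its 3 CG in capitals:
ETnERV3-int_dup490: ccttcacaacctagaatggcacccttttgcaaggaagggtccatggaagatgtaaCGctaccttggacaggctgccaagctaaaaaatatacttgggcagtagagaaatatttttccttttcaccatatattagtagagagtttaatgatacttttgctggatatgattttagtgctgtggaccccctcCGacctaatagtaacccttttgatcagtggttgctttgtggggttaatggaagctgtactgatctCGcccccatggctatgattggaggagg
The letters TGCGCA, part of the palindrome bound by NRF1, were searched on both strands and occur in 7.76% of the RefSeq promoter windows. The longer letters GCGCATGC, which overlap them on the palindrome, occur in 2.71%. Neither was in any of the 5 sequences shown here, which says only that these letters are not in these windows.

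The libraries held between 26063590 and 39365841 counts over genes and TE subfamilies, and TEs took 1.60% (Nrf1 cKO replicate 1) to 3.07% (WT replicate 1 and dKO replicate 1) of them. Germ cell markers were lower in Nrf1 cKO than in WT without overlap, while Dnmt3C KO and dKO overlapped WT. The summed level of 26 markers was 484 to 625 CPM (counts scaled to a common library size) in WT, 498 to 877 for Dnmt3C KO, 195 to 359 for Nrf1 cKO and 238 to 517 for dKO, with 25 of the 26 above 0 in every library. In bulk RNA of whole testes, fewer germ cells and less RNA per germ cell cannot be told apart. Sertoli cell markers summed to 4115 to 4233 CPM in WT, 4172 to 5522 for Dnmt3C KO, 4908 to 7421 for Nrf1 cKO and 4909 to 5554 in dKO. Red blood cell markers summed to 659 CPM in WT replicate 1 and 2124 in WT replicate 2, the highest of the 11 libraries and also the higher WT library for MMETn-int, and to 261 to 1774 CPM in the mutants. The part of the cell makeup in the results below was not tested. The counts of the deleted genes did not follow the deletions throughout, in counts over the whole gene and all cells. Nrf1 was at 58.9 and 57.8 CPM in WT, 46.1, 55.5 and 50.6 with Dnmt3C KO, 54.8, 51.3 and 57.4 with Nrf1 cKO, and 58.3, 60.5 and 58.8 with dKO. Nrf1 cKO lay below WT without overlap, whereas dKO lay above Dnmt3C KO without overlap. Dnmt3c was at 3.10 to 4.91 CPM over the 11 libraries, and Dnmt3C KO overlapped WT. Replicates come from the labels, which name no litter or day, so the tests measure the spread between these libraries.

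Detection of ETn and MusD copies differed with their length and chromosome. MMETn-int had 273 of 980 copies above 0 (27.9%), RLTRETN_Mm 335 of 1355 (24.7%), ETnERV-int 213 of 906 (23.5%), ETnERV3-int 110 of 560 (19.6%) and ETnERV2-int 120 of 1805 (6.65%). Detected MMETn-int copies had a median length of 2969 bases against 196 for those at 0, and detected ETnERV-int copies 1523 against 106. The LTR copies differed less, with medians of 322 and 331.5 bases. Between 15.6% and 27.9% of copies were detected on each autosome, against 40 of 587 (6.81%) on the X and 7 of 387 (1.81%) on the Y chromosome. LTRs within 100 bases of an internal region on the same strand were detected in 169 of 584 cases (28.9%), and the other LTRs in 166 of 771 (21.5%). These shares are descriptions without a test, since neighbouring copies share reads.

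Genes overlapped 307 of the 1051 detected copies (29.2%) and 823 of the 4555 copies at 0 (18.1%). Of the detected copies in genes, 130 lay on the strand of the gene and 177 on the opposite strand, and 61 overlapped an exon. A copy inside a gene on the same strand shares its reads with the transcript of that gene, and the stranded library tells only the opposite strands apart.

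Few copies held most of the reads. The values of the copy table were whole multiples of 1 read (100% of the values above 0, within 0.001 of a whole number), which gave 46564 reads, possibly rounded estimates of where reads with several matches belong, over the 1051 copies, with a median of 3 reads. A total of 305 copies had 1 read in all 11 libraries together, and 75 were above 0 in every library. ETnERV3-int_dup187 alone took 12692 of the 19033 ETnERV3-int reads (66.7%), and the 5 most abundant copies 83.5%. MMETn-int_dup888 took 4726 of 14565 reads (32.4%, 63.0% for 5 copies), RLTRETN_Mm_dup988 540 of 3782 (14.3%, 33.7%), ETnERV-int_dup742 858 of 7461 (11.5%, 40.8%) and ETnERV2-int_dup646 183 of 1723 (10.6%, 36.1%). ETnERV-int_dup742 and its neighbour ETnERV-int_dup741 lie in the protein-coding gene Rb1 on the same strand, so their reads cannot be told from those of that transcript. The count of MMETn-int is thus in large part the count of a few loci, and that of ETnERV3-int of a single one. In RLTRETN_Mm, ETnERV-int and ETnERV2-int most reads lay outside the 5 leading copies.

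**Figure D1:**
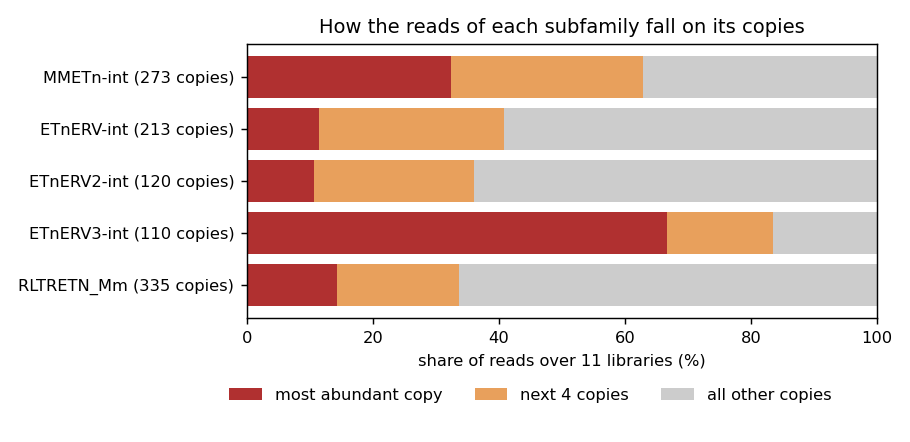
Share of the reads of each subfamily (horizontal axis, %, summed over 11 libraries) that fell on its most abundant copy, on the next 4 copies and on all others. The most abundant copy took 66.7% of the ETnERV3-int reads and 10.6% of the ETnERV2-int reads.

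The 10 most abundant copies were ranked by TPM (reads per length, scaled to a common sum), which here is per length and as a part of all TE reads in a library. ETnERV3-int_dup187, intergenic at chr7:106267266-106269782 (plus strand), had a mean of 108 TPM. It was at 71.1 and 107 TPM in WT, 149, 109 and 105 with Dnmt3C KO, 117, 136 and 117 with Nrf1 cKO, and 92.1, 75.2 and 113 with dKO. On this scale all Nrf1 cKO libraries lay above those of WT and dKO (Nrf1 cKO over WT on the log2(TPM + 1) scale 0.49 ± 0.30, standard error, limma adjusted p = 0.767). As RPM, the reads of this copy over all counts of the library, WT and Nrf1 cKO overlapped, with 29.8 and 40.6 in WT and 22.0, 37.5 and 35.1 in Nrf1 cKO. TEs as a whole held 2.91 to 3.07% of the counts in WT and 1.60 to 2.42% in Nrf1 cKO. A second copy of the same locus, ETnERV3-int_dup185 at chr7:106264766-106265429, had a mean of 13.5 TPM.

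MMETn-int_dup888 at chr17:32370064-32375738 (plus strand) lies in an intron of the lincRNA gene Gm26858 on the same strand. It was at 13.1 and 21.1 TPM in WT, 9.50, 20.9 and 9.50 with Dnmt3C KO, 17.2, 15.98 and 21.0 with Nrf1 cKO, and 15.7, 26.1 and 26.5 with dKO. ETnERV-int_dup824, next to it at chr17:32369739-32370094, was at 2.35 and 52.6 TPM in WT, 15.97, 18.1 and 12.7 with Dnmt3C KO, 21.2, 24.7 and 28.9 with Nrf1 cKO, and 18.02, 45.9 and 44.3 with dKO. The WT libraries differed most at the second copy, with 5 and 94 reads.

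The remaining copies of the 10 were RLTRETN_Mm_dup988 at chr13:74507897-74508222 (mean 36.7 TPM), ETnERV3-int_dup108 at chr5:109022897-109023654 (17.5 TPM), ETnERV2-int_dup643 at chr7:48157189-48157359 (17.0 TPM), RLTRETN_Mm_dup313 at chr4:147549719-147550038 (16.8 TPM), RLTRETN_Mm_dup97 at chr1:165173872-165174193 (12.3 TPM) and ETnERV3-int_dup224 at chrX:8790815-8792515 (11.04 TPM). None of these overlapped a gene. ETnERV3-int_dup224 was the steadiest, between 8.97 and 13.3 TPM over the 11 libraries. The value of ETnERV2-int_dup643 in Nrf1 cKO replicate 1, 67.3 TPM, stood on 29 reads, against 1.96 to 23.6 TPM in the other libraries.

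**Figure D2:**
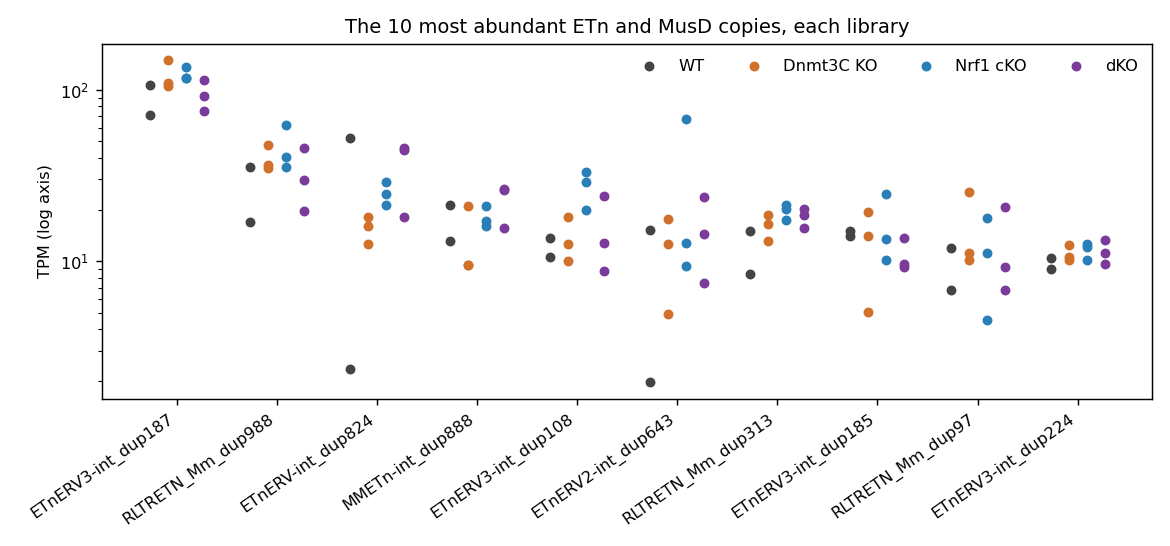
TPM (vertical axis, log scale) of the 10 most abundant copies, with 1 point for each library in the colour of its genotype. ETnERV3-int_dup187 lies between 71.1 and 149 TPM, and the WT libraries lie far apart at ETnERV-int_dup824, at 2.35 and 52.6 TPM.

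The subfamily counts asked whether loss of DNMT3C, of NRF1 or of both went with more or less ETn and MusD RNA. MMETn-int was at 39.7 and 60.9 CPM in WT, 30.0, 31.7 and 30.9 with Dnmt3C KO, 31.3, 34.9 and 38.4 with Nrf1 cKO, and 44.7, 51.3 and 49.3 with dKO. The means were 50.3 ± 14.96 CPM (SD, n = 2), 30.9 ± 0.833 (SD, n = 3), 34.9 ± 3.54 (SD, n = 3) and 48.4 ± 3.41 (SD, n = 3). Both single mutants lay below WT and below dKO without overlap, and dKO lay between the WT libraries.

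ETnERV-int had the same order of means. It was at 25.9 and 27.8 CPM in WT, 18.2, 15.7 and 16.4 with Dnmt3C KO, 13.8, 19.7 and 23.4 with Nrf1 cKO, and 24.0, 22.2 and 22.3 with dKO. Dnmt3C KO lay below WT and below dKO without overlap, whereas Nrf1 cKO overlapped dKO. Nrf1 cKO and dKO both lay below WT without overlap. For dKO, 18.8% of 904 TE subfamilies lay below WT in the same way.

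The other subfamilies overlapped between all genotypes. ETnERV3-int was at 49.1 and 58.0 CPM in WT, 67.1, 40.7 and 52.7 with Dnmt3C KO, 36.6, 58.5 and 56.0 with Nrf1 cKO, and 53.6, 38.1 and 58.3 with dKO. The LTR RLTRETN_Mm was at 10.6 and 15.5 CPM in WT, 10.8, 9.71 and 10.7 with Dnmt3C KO, 9.23, 10.7 and 10.3 with Nrf1 cKO, and 12.6, 11.6 and 8.62 with dKO. ETnERV2-int stayed between 3.91 and 6.31 CPM in all libraries.

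**Figure D3:**
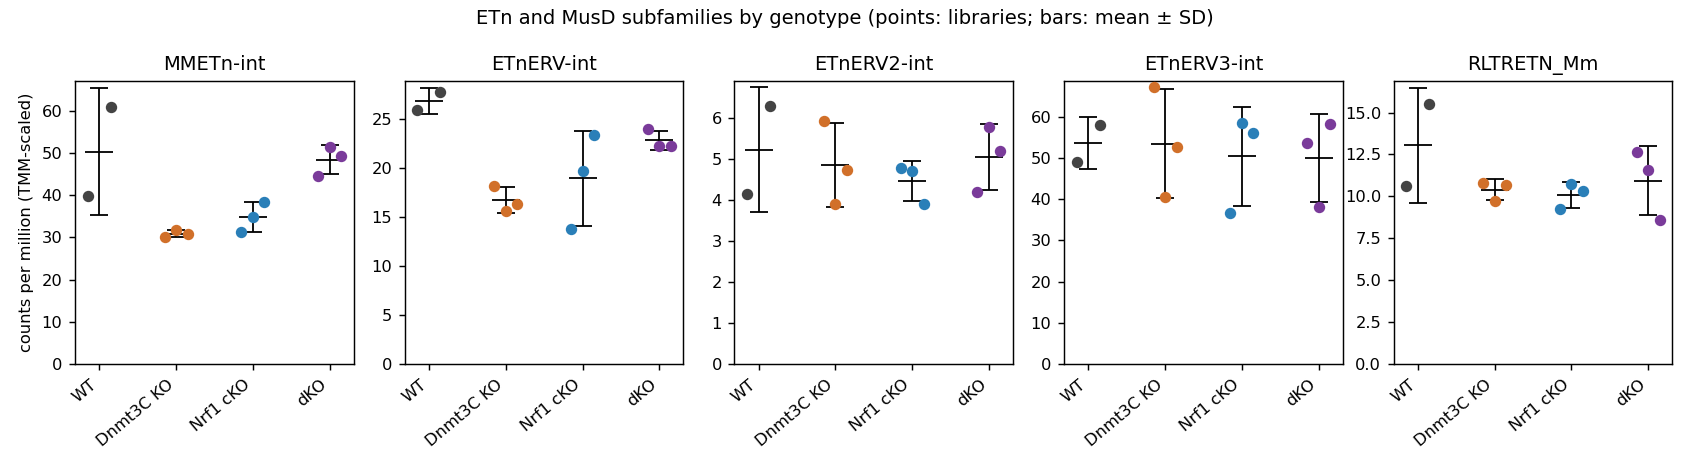
CPM (vertical axis, scaled by TMM) of the 5 subfamilies in each library (points) with mean ± SD of each genotype (bars). For MMETn-int, the Dnmt3C KO libraries sit between 30.0 and 31.7 CPM and the dKO libraries between 44.7 and 51.3 CPM, while ETnERV3-int overlaps between all genotypes.

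Between Dnmt3C KO and WT, edgeR's quasi-likelihood test called none of the 5 subfamilies at an adjusted p under 0.01, and 0% of all 21664 genes and TE subfamilies. MMETn-int lay at -0.70 on the log2 scale (standard error 0.18, edgeR p 0.00228, adjusted p 0.659) and ETnERV-int at -0.68 (standard error 0.15, edgeR p 0.00107, adjusted p 0.548). These 2 of 5 were lower at an unadjusted p under 0.05, where 14.3% of 880 TE subfamilies were. RLTRETN_Mm was at -0.33 (-0.017 without WT replicate 2 and -0.56 without WT replicate 1), ETnERV2-int at -0.11 and ETnERV3-int at -0.0030. The median was -0.33 over the 5 and -0.34 over all TE subfamilies. Groups that did not overlap, with the mutant lower, were found for 2 of 5 and for 39.2% of 904 subfamilies. The value of MMETn-int rested on WT: it was -0.35 without WT replicate 2 and -0.97 without WT replicate 1. Scaled to the TE total, which put the median of all features at 0.26, MMETn-int was at -0.45. Without the filter on low counts edgeR called MMETn-int, beside 0.475% of 33284 features.

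Related ERVK subfamilies lay on the other side of 0 in the same comparison. IAPEz-int, the internal region of IAP elements, was at 373 and 273 CPM in WT and at 1021, 594 and 590 in Dnmt3C KO, a log2 fold change of 1.19 (standard error 0.26, edgeR adjusted p 0.511). MMERVK10C-int was at 84.0 and 81.8 CPM in WT and at 402, 189 and 240 in Dnmt3C KO, a log2 fold change of 1.74 (standard error 0.28, edgeR adjusted p 0.205). The LTRs IAPLTR1_Mm and RLTR10C were at 1.36 and 1.74. edgeR called all 4 of these with the replicate block (0.605% of all features called) and without the filter. The block uses the replicate number of the labels. WT has no replicate 3, so Dnmt3C KO replicate 3 does not inform the difference in the block fit. DESeq2, which called 0.1% of all features, called all 4 and none of the 5 ETn and MusD subfamilies, whose smallest DESeq2 adjusted p was 0.0925 (ETnERV-int).

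Between Nrf1 cKO and WT, none of the 5 was called by edgeR, which called 0% of all features, or by DESeq2, which called 0.108%. MMETn-int lay at -0.53 on the log2 scale (standard error 0.20, edgeR p 0.0247, adjusted p 0.840), the only 1 of 5 that was lower at an unadjusted p under 0.05, against 28.4% of 863 TE subfamilies. ETnERV-int was at -0.51 (-0.33 without Nrf1 cKO replicate 1), RLTRETN_Mm at -0.38 (-0.083 without WT replicate 2 and -0.60 without WT replicate 1), ETnERV2-int at -0.23 and ETnERV3-int at -0.096. The median of the 5 was -0.38, less negative than the -0.56 of all TE subfamilies. Non-overlapping lower groups were found for 2 of 5, against 57.2% of all subfamilies. MMETn-int was at -0.19 without WT replicate 2, at -0.79 without WT replicate 1, and at -0.028 when scaled to the TE total. Scaling to equal germ cell markers, which were lower in Nrf1 cKO, turned all 5 values positive, between 0.78 (MMETn-int) and 1.31 (ETnERV3-int), with the median of all features at 1.34 under that scaling.

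Between dKO and Nrf1 cKO, again none of the 5 was called by edgeR or DESeq2, with 0% of all features called by edgeR. MMETn-int lay at 0.48 on the log2 scale (standard error 0.13, edgeR p 0.00438, adjusted p 0.9998), which made 1 of 5 higher at an unadjusted p under 0.05, against 9.67% of 827 TE subfamilies. It was also the 1 of 5 whose groups did not overlap, against 16.5% of subfamilies. ETnERV-int was at 0.27 (0.085 without Nrf1 cKO replicate 1 and 0.45 without Nrf1 cKO replicate 3), ETnERV2-int at 0.18, RLTRETN_Mm at 0.12 and ETnERV3-int at -0.0081. The median was 0.18 over the 5 and 0.34 over all TE subfamilies. Over the same libraries MMERVK10C-int was at 2.29 (edgeR adjusted p 0.132), RLTR10C at 1.57, IAPLTR1_Mm at 1.01 and IAPEz-int at 0.81. DESeq2 (0.0241% of all features called) and edgeR without the filter (0.0151%) called the first 2 of these. Scaled to equal germ cell markers, MMETn-int was at -0.17, with the median of all features at -0.65. Scaled to the TE total it was at 0.084, with that median at -0.42.

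Between dKO and Dnmt3C KO, MMETn-int had its smallest p. The log2 fold change was 0.65 (standard error 0.10, edgeR p 9.15e-05, adjusted p 0.398), and DESeq2 called it with an adjusted p of 0.00549, beside 0.0704% of all features. ETnERV-int was at 0.44 (standard error 0.12, edgeR p 0.00491, adjusted p 0.675). edgeR called none of the 5 and 0% of all features. At an unadjusted p under 0.05, 2 of 5 were higher, against 3.17% of 851 TE subfamilies, and the same 2 of 5 did not overlap between the groups, against 7.74%. RLTRETN_Mm was at 0.071, ETnERV2-int at 0.052 and ETnERV3-int at -0.10. Over the 5 the median was 0.071, against 0.14 over all TE subfamilies. Leaving out any single library kept MMETn-int positive. Scaled to equal germ cell markers, MMETn-int was at 1.55 and ETnERV-int at 1.36, with the median of all features at 0.92.

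Between dKO and WT, MMETn-int was at -0.057, ETnERV-int at -0.24, RLTRETN_Mm at -0.26, ETnERV2-int at -0.052 and ETnERV3-int at -0.10 on the log2 scale, with a median of -0.10 against -0.20 over all TE subfamilies. None was called by edgeR, which called 0% of all features, or by DESeq2, which called 0.012%, and none reached an unadjusted p under 0.05. MMETn-int changed sign with the WT library left out, at 0.29 without WT replicate 2 and -0.34 without WT replicate 1.

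Over all 11 libraries, loss of DNMT3C across both Nrf1 backgrounds gave log2 fold changes of -0.061 for MMETn-int (-0.17 without Nrf1 cKO replicate 1 and 0.18 without WT replicate 2) and -0.16 for ETnERV-int (-0.31 without Nrf1 cKO replicate 1 and -0.048 without WT replicate 2). None of the 5 was called, nor at an unadjusted p under 0.05, and 0.00443% of features were: the single call was MMERVK10C-int, at 2.04 (standard error 0.22, edgeR adjusted p 0.00457), a call lost in 9 of 17 alternatives, all of them between 1.46 and 2.15. The Nrf1 deletion across both Dnmt3C backgrounds gave 0.11 for MMETn-int (0.022 without Dnmt3C KO replicate 1 and 0.35 without WT replicate 2) and 0.016 for ETnERV-int (-0.066 without Dnmt3C KO replicate 2 and 0.14 without Nrf1 cKO replicate 1), again with none of the 5 called and 0.00443% of features called. DESeq2 called none of the 5 in either, and all 4 related subfamilies for loss of DNMT3C (0.073% of all features). With germ cell markers set equal, 3 of the 5 were called for the Nrf1 deletion, as were 46.3% of all features. The median of all features then stood at 1.09 on the log2 scale, with MMETn-int at 1.21 and ETnERV-int at 1.15.

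The interaction asked whether the difference made by loss of DNMT3C was the same without and with Nrf1 deletion. MMETn-int was at 1.18 on the log2 scale (standard error 0.22, edgeR p 0.000147, adjusted p 0.895), from -0.70 without and 0.48 with the deletion, and DESeq2 gave an adjusted p of 0.0563. ETnERV-int was at 0.95 (standard error 0.25, edgeR p 0.00246, adjusted p 0.895). None of the 5 was called by either tool, and each tool called 0% of features. At an unadjusted p under 0.05, 2 of 5 were higher, as were 28.5% of 904 TE subfamilies, whose median was 0.68 against 0.45 over the 5. RLTRETN_Mm was at 0.45 (0.14 without WT replicate 2 and 0.68 without WT replicate 1), ETnERV2-int at 0.28 and ETnERV3-int at -0.0085. IAPEz-int was at -0.38, IAPLTR1_Mm at -0.35, RLTR10C at -0.18 and MMERVK10C-int at 0.55. MMETn-int was between 0.82 (without WT replicate 2) and 1.44 (without WT replicate 1). Scaled to the TE total, which put the median of all TE subfamilies at 0.062, MMETn-int was at 0.53 (edgeR p 0.108) and ETnERV-int at 0.34, and scaled to equal germ cell markers MMETn-int was at 0.77 (edgeR p 0.295). The 4 patterns of MMETn-int together, single mutants below WT and dKO above each single mutant without overlap, were shared by 2.43% of the 904 subfamilies. The comparisons share libraries, so their values are not independent of each other.

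**Figure D4:**
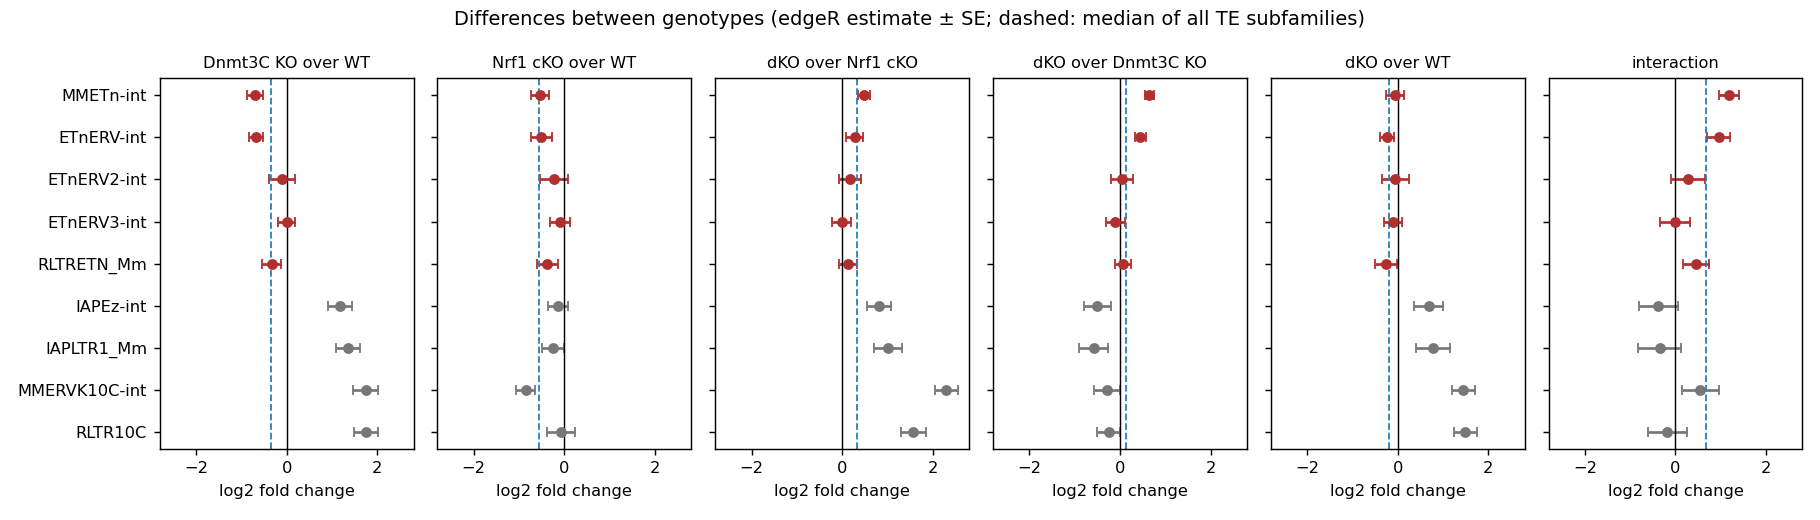
Log2 fold change ± SE (horizontal axis, edgeR) of the 5 ETn and MusD subfamilies (red) and 4 related ERVK subfamilies (grey) in 6 comparisons, with the median of all TE subfamilies dashed. MMETn-int lies at -0.70 in Dnmt3C KO over WT and at 0.65 in dKO over Dnmt3C KO, and the grey points lie above 0 in Dnmt3C KO over WT.

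With the reads of MMETn-int_dup888 taken off, the log2 fold change was -0.68 in Dnmt3C KO over WT, -0.54 in Nrf1 cKO over WT, 0.37 in dKO over Nrf1 cKO and 0.51 in dKO over Dnmt3C KO, with an interaction of 1.05. With the 5 leading copies taken off, these were -0.53 (edgeR p 0.0241), -0.46 (edgeR p 0.0591), 0.36 (edgeR p 0.0763) and 0.43 (edgeR p 0.0343), with an interaction of 0.88 (edgeR p 0.00654). MMETn-int thus kept its direction, while Nrf1 cKO over WT and dKO over Nrf1 cKO no longer had an unadjusted p under 0.05. ETnERV-int had an interaction of 0.90 and 1.06 under the same changes. ETnERV3-int without ETnERV3-int_dup187 was at -0.28 in Dnmt3C KO over WT and at 0.22 in dKO over Dnmt3C KO, with an interaction of 0.27, so that the sign of the last 2 differed from that of the whole subfamily. These alternatives were chosen after seeing the data.

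Single copies were tested with limma on log2(TPM + 1), for copies above 1 TPM in at least 2 libraries. Between 208 and 220 ETn and MusD copies were tested, and none was called at an adjusted p under 0.01 in any of the 8 comparisons. Over all TE copies, limma called 0% in Dnmt3C KO over WT, in Nrf1 cKO over WT, in dKO over WT and for the interaction, 0.0294% in dKO over Nrf1 cKO, 0.0362% in dKO over Dnmt3C KO, 0.00503% for loss of DNMT3C and 0.00116% for the Nrf1 deletion. At an unadjusted p under 0.05, 1 of 209 ETn and MusD copies was lower in Dnmt3C KO over WT, against 1.95% of all TE copies. In Nrf1 cKO over WT 2 of 208 were higher and 1 lower (all copies 0.663% and 2.54%), and in dKO over Nrf1 cKO 1 of 218 was higher and 3 lower (1.8% and 1.1%). One copy was higher in dKO over Dnmt3C KO (1.49% of all copies) and 1 in dKO over WT (0.958%). For loss of DNMT3C 2 of 220 were higher and 2 lower (1.87% and 1.9%), for the Nrf1 deletion none was either, and for the interaction 3 were higher and 3 lower (3.35% and 0.855%). The median copy was near 0 on this scale, at -0.029 (all TE copies -0.065) in Dnmt3C KO over WT, 0.043 (-0.22) in Nrf1 cKO over WT, -0.0027 (0.19) in dKO over Nrf1 cKO and 0.073 (-0.0021) in dKO over Dnmt3C KO. With WT replicate 2 left out, 10 of 205 copies were called in Dnmt3C KO over WT, where 10.9% of all TE copies were, 10 of 195 in Nrf1 cKO over WT (17.8%) and 5 of 205 in dKO over WT (9.61%). With WT replicate 1 left out, 18 of 203 were called in Nrf1 cKO over WT (14.4%). A single WT library then stands for the genotype and is assumed to vary like the mutants.

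The whole reads recovered from the table were also tested with edgeR, an alternative chosen after seeing the data. It called none of the 54 to 98 ETn and MusD copies tested, and for loss of DNMT3C 0.411% of 22610 TE copies. At an unadjusted p under 0.05, 10 of 69 copies were lower in Dnmt3C KO over WT, where 3.71% of all copies were, and none was higher. In Nrf1 cKO over WT 1 of 74 was higher and 5 lower (all copies 0.409% and 5.79%), and in dKO over Nrf1 cKO 4 of 61 were higher and 1 lower (4.93% and 0.274%). In dKO over Dnmt3C KO 4 of 54 were higher (2.1%) and none lower, and in dKO over WT 2 of 84 were higher and 1 lower (2.41% and 1.8%). Of 98 copies, 1 was higher and 2 lower for loss of DNMT3C (4.67% and 0.889%), none either way for the Nrf1 deletion, and 12 higher and 1 lower for the interaction (6.32% and 0.478%).

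The 13 copies named for the smallest p in a comparison had 4 to 426 reads over the 11 libraries, and 10 of them had under 100. Most were at 0 or under 1 TPM in 1 of the groups compared and, among the libraries compared, passed the filter of 1 TPM only through the group where they were high, which fixed their direction. For those the reads are given and no difference. RLTRETN_Mm_dup424 (chr6:115829471-115829791, plus strand) is the downstream LTR of the Gm44206 locus shown above. It had 0 and 17 reads in WT, 0 in all Dnmt3C KO and Nrf1 cKO libraries, and 4, 43 and 7 in dKO. In WT, 1 library was above 2 of the 3 dKO libraries. This copy was named for its smallest p, and the share of TE copies with reads in dKO but in neither single mutant was not counted. The upstream LTR RLTRETN_Mm_dup423 had 0 to 11 reads over the 11 libraries. RLTRETN_Mm_dup439, the promoter window shown first, had 13, 5 and 0 reads in dKO and 0 in every other library.

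MMETn-int_dup321 and RLTRETN_Mm_dup497 adjoin each other at chr7:25574783-25575190 and may share reads. Both were named for their smallest p, were at 0 in dKO and were above 0 in every Nrf1 cKO library. The share of TE copies with this pattern was not counted. MMETn-int_dup321 had 0 reads in WT, 2, 0 and 2 for Dnmt3C KO, 1, 4 and 2 for Nrf1 cKO and 0 in dKO. RLTRETN_Mm_dup497 had 0 and 3 in WT, 0, 0 and 6 for Dnmt3C KO, 1, 6 and 10 for Nrf1 cKO and 0 in dKO. In WT only RLTRETN_Mm_dup497 had reads.

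In Dnmt3C KO over WT the copies with the smallest p were RLTRETN_Mm_dup442, ETnERV-int_dup376 and RLTRETN_Mm_dup997 (limma adjusted p 0.843 for each). ETnERV-int_dup376 had 1 and 2 reads in WT and 0 in Dnmt3C KO, and RLTRETN_Mm_dup997 had 7 and 12 in WT and 0, 1 and 1 in Dnmt3C KO. RLTRETN_Mm_dup442 had 31 and 19 reads in WT, 0, 13 and 0 with Dnmt3C KO, 0, 22 and 10 with Nrf1 cKO, and 3, 1 and 15 with dKO. It lies downstream of an internal region chosen after its values were seen, MMETn-int_dup259 (chr6:127514350-127520169, plus strand), which had 164 and 141 reads in WT, 44, 67 and 51 with Dnmt3C KO, 68, 128 and 71 with Nrf1 cKO, and 109, 115 and 146 with dKO. Both WT libraries were above all Dnmt3C KO libraries at this internal region, and so were all dKO libraries. By reads scaled to library size this held for 2 of 62 ETn and MusD copies with at least 100 reads, and for 3.86% of 12064 TE copies of that minimum. Other copies of smallest p were RLTRETN_Mm_dup745 and ETnERV-int_dup657 in Nrf1 cKO over WT, MMETn-int_dup913 in dKO over Dnmt3C KO, ETnERV-int_dup741 in dKO over WT and for loss of DNMT3C, RLTRETN_Mm_dup307 for loss of DNMT3C and ETnERV-int_dup824 for the Nrf1 deletion (1.01 on the log2(TPM + 1) scale, limma adjusted p 0.767 or more, as for every copy of the 13 other than RLTRETN_Mm_dup424 at 0.700). ETnERV-int_dup657 had 1 and 2 reads in WT and 13, 30 and 30 in Nrf1 cKO, against 0 to 36 in the other genotypes.

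Some copies were near absent in 1 library and present in others of the same genotype. Of 62 copies with at least 100 reads in total, 49 were above 0 in all 11 libraries and 18 (29%) had at most 1 read in some library, against 23% of the 12064 TE copies with at least 100 reads. All 18 had at least 10 reads in another library of that genotype, as did 18.8% of the TE copies. This count and the copies named in this paragraph were chosen after their values were seen. ETnERV3-int_dup50 and ETnERV3-int_dup51, neighbours at chr2:150551016-150556870 (minus strand), were both at 3 reads or fewer in the same libraries. ETnERV3-int_dup50 had 47 and 0 reads in WT, 37, 1 and 26 with Dnmt3C KO, 51, 59 and 37 with Nrf1 cKO, and 42, 0 and 93 with dKO, and ETnERV3-int_dup51 had 3, 2 and 1 reads in the 3 libraries where its neighbour had 0 or 1. These were WT replicate 2, Dnmt3C KO replicate 2 and dKO replicate 2, so the switch crossed genotypes.

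MMETn-int_dup250, the internal region of the Gm44206 locus, had 1 read in Nrf1 cKO replicate 3 and 23 to 132 in the others. ETnERV-int_dup67 (chr2:144149300-144155682) had 1 read in Nrf1 cKO replicate 1 and 14 to 112 in the others. ETnERV-int_dup373, in an intron of Ccdc7a on chromosome 8, had 0 reads in Dnmt3C KO replicate 2 and 15 to 118 in the others. These gaps lay within genotypes, and their source was not tested. Some copies cannot be told apart in these values: ETnERV-int_dup126 and ETnERV-int_dup129 had identical reads in every library, and so had MMETn-int_dup211 and ETnERV-int_dup179.

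**Figure D5:**
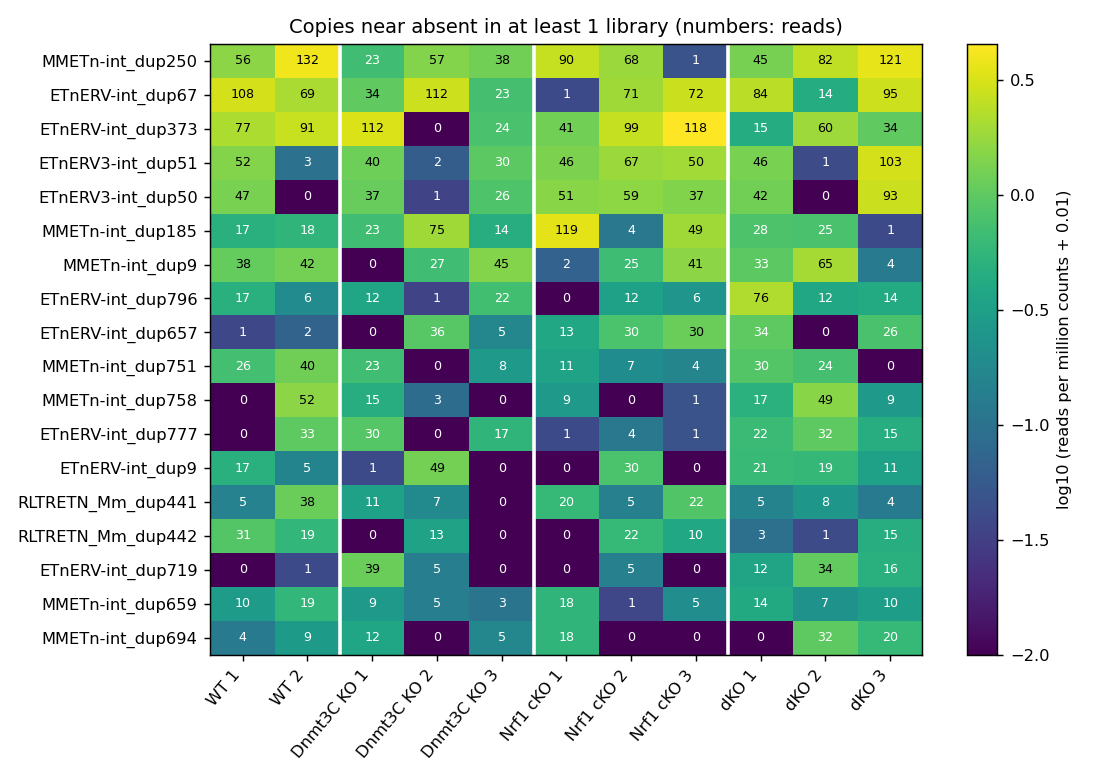
Library-size-scaled reads (colour, log10 of RPM plus 0.01) of the 18 copies with at least 100 reads in total and at most 1 read in some library, with the reads printed in each cell and genotypes set apart by white lines. Low cells occur in every genotype, such as 0, 1 and 0 reads of ETnERV3-int_dup50 in the second replicates of WT, Dnmt3C KO and dKO.

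Of 27 host genes known to silence ERVK elements, edgeR as run called none in any comparison, with 27 tested in 7 comparisons and 26 in dKO over Nrf1 cKO. The list holds DNA methylation enzymes, SETDB1 and its partners, KRAB zinc finger genes and piRNA genes. In Nrf1 cKO over WT, 5 of 27 were lower at an unadjusted p under 0.05, as were 3.2% of all genes, and 0 were higher. Hells, a chromatin remodeller needed for DNA methylation, lay at -0.91 on the log2 scale (standard error 0.18, edgeR adjusted p 0.581). Mael and Mov10l1, piRNA pathway genes expressed in germ cells, were at -1.30 and -1.33. edgeR called these 3 genes without the filter on low counts (0.419% of all features called) and with the replicate block (0.409%). In the block fit Nrf1 cKO replicate 3 has no WT library of its number and does not inform the difference. Without Nrf1 cKO replicate 1 edgeR called Mael at -1.67 and Mov10l1 at -2.08 (0.119%). In dKO over Nrf1 cKO 1 was higher (1.62% of all genes), Hells at 0.72 (standard error 0.13, edgeR adjusted p 0.692), with Resf1, a partner of SETDB1, at 0.32 and Zfp932, a KRAB zinc finger gene, at 0.47.

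In dKO over Dnmt3C KO 2 were higher (3.1% of all genes), Resf1 at 0.37 and the SETDB1 cofactor Atf7ip at 0.34, and 2 lower (4.23%), Mael at -0.97 and Mov10l1 at -0.79. In Dnmt3C KO over WT 1 was lower (2.37%), the chromatin remodeller Atrx at -0.35, with Resf1 at -0.29 and Atf7ip at -0.24. For the interaction 3 were higher (2.65%), Hells at 0.84, Resf1 at 0.60 and Atrx at 0.49. The counts were 0 higher and 2 lower in dKO over WT (1.18% of all genes lower), 1 and 0 for loss of DNMT3C (1.83% higher), and 0 and 5 for the Nrf1 deletion (4.36% lower). For the Nrf1 deletion DESeq2 called Mael (0.156% of all features), and edgeR called 15 of the 27 with germ cell markers set equal, the setting that called 46.3% of all features. The germ cell markers above moved with Mael and Mov10l1 in Nrf1 cKO, and their part in these values was not tested.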

How the data were processed

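Poly-A RNA of 11 whole testes was analysed, grouped by the genotype in the labels. The authors aligned reads with STAR 2.7.3a to GRCm38 and deposited raw counts per gene and TE subfamily made with TEtranscripts, which divides multi-mapping reads, beside their own DESeq2 1.44.0 comparisons, whose fold changes and p-values were not used. The authors also deposited TPM per TE copy from TElocal, relative to the TE total. The counts were joined over 6 tables into 33188 genes and 1088 TE subfamilies.

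Counts were tested with edgeR 4.0.16 in R 4.3.3 (filterByExpr, TMM, quasi-likelihood F test, p adjusted by Benjamini-Hochberg over all features tested, threshold 0.01) on the libraries of the genotypes compared, and on all 11 for additive terms and the interaction. The standard error of a log2 fold change was its absolute size over the root of the F statistic. Copies were tested with limma 3.58.1 on log2(TPM + 1). DESeq2 1.42.0, another scaling (size factors, TE total, germ cell markers), no filter, a threshold of 0.05, a replicate block, leaving out each library, a pseudocount of 0.1, every detected copy and TPM times the TE share were alternatives. The tests were tested on simulated data. Python 3.11.15 and pandas 2.3.3 were used for tables.

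Members, lists and the rule for naming were chosen with earlier results of these data known. Named were all 5 subfamilies, the 10 copies of highest mean TPM, the 3 copies of smallest p in each comparison, 4 related subfamilies, and the repressor genes past the threshold, otherwise the 3 of smallest p. Copies outside these (neighbours of named copies, copies with a sequence shown, leading copies of a subfamily and copies near absent in some library) were added after their values were seen. The choice of which to give singly and which by counts followed after their values were seen. Gene overlap used GENCODE M21, while the authors used a later release. One read was worth 0.168 to 0.397 TPM on a copy of 1 kb. Reads are not molecules, so depth sets counting error only. Replicates differed by more than sampling noise (chi-square per degree of freedom 17.6 to 61.8).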

Additional observations from a re-analysis of the deposited data

Results flagged for a closer look

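MMETn-int lay on opposite sides of its control with loss of DNMT3C in the 2 Nrf1 backgrounds. The log2 fold change was -0.70 in Dnmt3C KO over WT and 0.48 in dKO over Nrf1 cKO, and the interaction term was 1.18 (edgeR p 0.000147, adjusted p 0.895). The result drew attention because the groups did not overlap, in opposite directions without and with the Nrf1 deletion. The interaction did not pass the adjusted threshold. All 3 Dnmt3C KO libraries lay below both WT libraries, as in 39.2% of 904 TE subfamilies, and all 3 dKO libraries above all 3 Nrf1 cKO libraries, as in 16.5%. The median interaction over all TE subfamilies was 0.68, and 28.5% of them were higher at an unadjusted p under 0.05. Without WT replicate 2 the value in Dnmt3C KO over WT was -0.35 and the interaction 0.82. Scaled to the TE total, which put the median of the TE subfamilies at 0.062, the interaction was 0.53 (edgeR p 0.108) and dKO over Nrf1 cKO 0.084. With germ cell markers set equal, both values lay on the same side, at -0.94 in Dnmt3C KO over WT and -0.17 in dKO over Nrf1 cKO, with an interaction of 0.77 (edgeR p 0.295).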

How the results depend on the processing

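The 5 subfamilies were called in no comparison by edgeR as run, and 3 settings moved that count: 1 (MMETn-int) in Dnmt3C KO over WT without the filter on low counts, 1 (MMETn-int) in dKO over Dnmt3C KO with the DESeq2 Wald test, and 3 for the Nrf1 deletion with germ cell markers set equal, where 46.3% of all features were called. Counts of copies called ranged, with each library left out in turn, from 0 to 10 in Dnmt3C KO over WT, 0 to 18 in Nrf1 cKO over WT and 0 to 5 in dKO over WT; where any was called, 9.61 to 17.8% of all TE copies were called too. The other 233 counts under alternatives kept their size. Of the single log2 values, 1020 kept direction and side of the threshold, 33 passed it in addition (mostly related subfamilies, and Hells, Mael and Mov10l1 in Nrf1 cKO over WT), 9 lost the call (MMERVK10C-int for loss of DNMT3C) and 92 changed sign; those are given here, with left-out libraries as ranges, and the cause was not tested. A further 34 log2 values (related subfamilies, ETnERV2-int, ETnERV3-int, RLTRETN_Mm and repressor genes in comparisons where the report gives them by counts) are left out one by one, a choice made after they were seen: under alternatives 439 kept their call, 16 became called and 49 changed sign.

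Scaled to the TE total, Dnmt3C KO over WT gave 0.13 (ETnERV2-int), 0.23 (ETnERV3-int) and 0.013 (Atf7ip), and Nrf1 cKO over WT gave 0.31 (ETnERV2-int), 0.38 (ETnERV3-int) and 0.13 (RLTRETN_Mm). dKO over Nrf1 cKO gave -0.10 (ETnERV-int), -0.24 (ETnERV2-int), -0.30 (RLTRETN_Mm) and -0.073 (Resf1), and dKO over Dnmt3C KO gave -0.063 (ETnERV2-int) and -0.082 (RLTRETN_Mm). dKO over WT gave 0.064 (ETnERV2-int), 0.013 (ETnERV3-int) and 0.056 (MMETn-int), and the interaction gave -0.37 (ETnERV2-int), -0.21 (RLTRETN_Mm), -0.063 (MMERVK10C-int), -0.039 (Resf1) and -0.17 (Atrx).

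With germ cell markers set equal, which moved the median of all features to 1.34 in Nrf1 cKO over WT, -0.65 in dKO over Nrf1 cKO, 0.92 in dKO over Dnmt3C KO and 0.71 in dKO over WT, Nrf1 cKO over WT gave 0.89 (ETnERV-int), 1.05 (ETnERV2-int), 1.31 (ETnERV3-int), 0.78 (MMETn-int), 0.95 (RLTRETN_Mm) and 0.36 (Hells). dKO over Nrf1 cKO gave -0.44 (ETnERV-int), -0.43 (ETnERV2-int), -0.17 (MMETn-int), -0.63 (RLTRETN_Mm), -0.27 (Resf1) and -0.063 (Zfp932). dKO over Dnmt3C KO gave 0.93 (ETnERV3-int) and 3.42e-05 (Mov10l1). dKO over WT gave 0.45 (ETnERV-int), 0.62 (ETnERV2-int), 0.65 (ETnERV3-int), 0.61 (MMETn-int) and 0.32 (RLTRETN_Mm). The interaction gave -0.039 (ETnERV2-int) and -0.053 (RLTRETN_Mm).

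ETnERV3-int, near 0 as run, was at 0.0097 without the filter, 0.0030 with DESeq2's size factors and 0.0046 with the DESeq2 Wald test in Dnmt3C KO over WT. Without the most abundant copy it was at 0.22 in dKO over Dnmt3C KO and 0.27 for the interaction. Without the 5 most abundant copies it was at 0.014 in Nrf1 cKO over WT, 0.23 in dKO over Dnmt3C KO and 0.21 for the interaction, and ETnERV2-int was at 0.011 in Dnmt3C KO over WT and -0.10 in dKO over Dnmt3C KO.

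Leaving out each library in turn gave ranges across 0. These were -0.37 to 0.24 (ETnERV2-int) and -0.19 to 0.16 (ETnERV3-int) in Dnmt3C KO over WT, -0.48 to 0.10 and -0.22 to 0.086 in Nrf1 cKO over WT, and -0.19 to 0.17 (ETnERV3-int) and -0.0015 to 0.27 (RLTRETN_Mm) in dKO over Nrf1 cKO. In dKO over Dnmt3C KO they were -0.082 to 0.22 (ETnERV2-int), -0.26 to 0.10 (ETnERV3-int) and -0.064 to 0.22 (RLTRETN_Mm). In dKO over WT they were -0.33 to 0.28 (ETnERV2-int), -0.23 to 0.064 (ETnERV3-int), -0.34 to 0.29 (MMETn-int) and -0.51 to 0.043 (RLTRETN_Mm). They were -0.17 to 0.18 (MMETn-int) for loss of DNMT3C, -0.066 to 0.14 (ETnERV-int) for the Nrf1 deletion, and -0.066 to 0.54 (ETnERV2-int), -0.19 to 0.17 (ETnERV3-int) and -0.41 to 0.13 (RLTR10C) for the interaction.

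The labels number the replicates, and of 15 pairs of libraries with the same number 3 correlated over 0.1 (-0.23 to 0.22). The values correlated were deviations from the mean of a genotype, which mirror each other in the 2 WT libraries. Such correlations cannot show whether libraries of the same number share a litter. The deposited columns number Dnmt3C KO replicate 3 as 4 and dKO replicate 3 as 5; over the 12 pairs whose numbers are the same in titles and columns, 3 correlated over 0.1, and the third level of the replicate block rests on the titles. With the replicate block, edgeR called 131 of all features in Dnmt3C KO over WT, 87 in Nrf1 cKO over WT and 21 in dKO over WT, where it called 0 without it. WT has no replicate 3, so in these comparisons replicate 3 of the mutant does not inform the difference with the block. None of the 5 subfamilies was called with the block in any comparison, the MMETn-int interaction was 1.18 and the ETnERV3-int interaction 0.047. With 2 WT libraries and RNA of whole testes, small changes in germ cell RNA may not be detectable at this depth, and reads of near-identical copies cannot be placed with certainty.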
